A study of Mus musculus with 11 samples.

Results

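The comparison was between 2 populations of splenic CD4+ T cells that both lacked surface CD25, split by flow sorting on CD45RB: 4 arrays of CD4+CD25-CD45RBlow cells, labelled activated/memory, and 4 arrays of CD4+CD25-CD45RBhigh cells, labelled naive. These were 8 of the 11 arrays of the series, and they were chosen by their labels alone. The cells of both populations came from unmanipulated female C57BL/6 mice aged 4 to 6 weeks, with no transgene and no treatment. The remaining 3 arrays held CD4+CD25+(CD45RBlow) Treg cells, whose labels give no age, and they served here to estimate the spread and as a further level beside these. RNA was hybridised to a custom Affymetrix glycan gene chip with 1246 probe sets for glycosylation enzymes, glycan-binding proteins, glycosylated receptors and ligands, and reference transcripts. Replicates of a population carried numbers 1 to 4, and the labels do not say whether they came from separate mice or pools, so every p-value below measures the spread between these arrays, which may be technical.

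CD45RB is a form of the CD45 phosphatase made by alternative splicing, and mouse CD4+ T cells that have met antigen lower it. Naive cells leave the blood through lymph node vessels by means of CCR7 and depend on IL-7 for survival. Antigen-experienced cells put chemokine receptors for inflamed and barrier tissues on their surface, make effector cytokines quickly, and remodel the glycans that selectins, galectins and chemokines bind. CD25 is the IL-2 receptor alpha chain, and its exclusion removes most regulatory T cells from the CD45RBlow gate but not those that carry little of it.

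Differences of at least 2-fold between CD45RBlow and CD45RBhigh cells were mostly higher messages in CD45RBlow cells. They included tissue-homing chemokine receptors, effector cytokines and single chains of cytokine receptors. Such chains were Il2rb (IL-2), Il12rb1 (IL-12), Il18rap (IL-18), Il17rb (IL-25) and Il1rl1 (IL-33). The partner chains Il2rg, Il12rb2 and Il18r1 did not reach 2-fold. The largest differences were in Cxcr6 (13.6-fold), Cxcr3 (11.1-fold), Ccr2 (10.2-fold), Ifng (9.10-fold) and Cd83 (8.48-fold). Messages for lymph node homing and naive survival (Ccr7, Il7r) and for several glycan enzymes (Ust, St8sia6, St8sia1, Cmah) were lower, by smaller factors. Of the 1246 probe sets, 157 (12.6%) passed limma's test at an adjusted p under 0.05, 95 of them higher (7.62%) and 62 lower (4.98%) in CD45RBlow cells. A difference of at least 2-fold was reached by 54 that passed (4.33%), 48 of the higher (3.85% of all) and 6 of the lower probe sets (0.482%).

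Same-numbered CD45RBlow and CD45RBhigh arrays deviated together from their group means, and with the replicate number as a block 271 probe sets passed (21.7%), 125 higher (10.0%) and 146 lower (11.7%). The count of lower probe sets therefore depended on the model far more than the count of higher ones. It also depended on scaling: the split of 95 higher to 62 lower became 98 to 129 after a second quantile normalization and 108 to 31 when arrays were scaled on the 623 probe sets of smallest spread. The median difference of all probe sets was -0.08 on the log2 scale, and 25.8% lay above 0. The 4 arrays of each population did not overlap for 222 probe sets (17.8%), of which 106 were higher (8.51%) and 116 lower (9.31%). Array medians ran from 4.85 to 4.94, and 909 genes were named by 963 probe sets, 121 of which genes passed, 79 higher and 42 lower. Means below 3.64, a level exceeded by 3 in 4 of the values, are called near the low end of the scale here, where a difference may be understated.

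**Figure D1:**
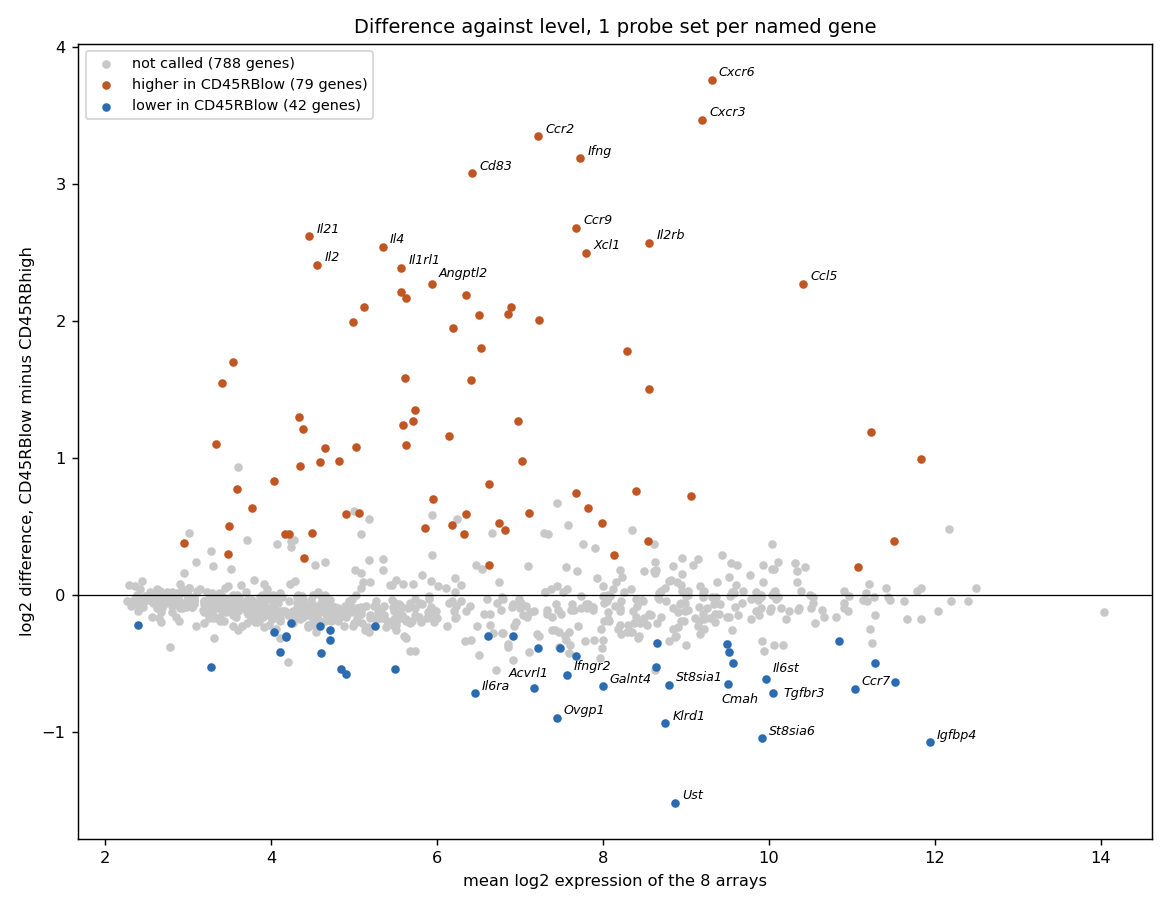
Log2 difference between CD45RBlow and CD45RBhigh cells (vertical axis) against the mean log2 expression of the 8 arrays (horizontal axis), 1 point for each of 909 named genes, coloured by limma's call. The 14 labelled genes above the line reach 3.76 (Cxcr6), whereas the 14 labelled below it reach -1.52 (Ust).

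The labels were set beside markers of the naive and memory states. In the sentences that follow, values are log2 expression and stand in the order of replicates 1 to 4. Cxcr6, the receptor for CXCL16 on effector and memory cells, read 7.90, 7.27, 7.41 and 7.13 on the CD45RBhigh arrays and 11.26, 11.37, 10.95 and 11.18 on the CD45RBlow arrays. Cxcr3, the receptor for the interferon-induced chemokines CXCL9 and CXCL10, read 7.59, 7.19, 7.30 and 7.77 against 11.02, 11.09, 10.73 and 10.89. Both receptors lay more than 2 log2 units apart on every pair of arrays, and neither overlapped. Cd44, the hyaluronan receptor used to gate memory cells, read 8.29, 7.91, 7.41 and 7.61 against 9.80, 9.90, 8.71 and 8.83. Its CD45RBlow arrays fell into a high pair (replicates 1 and 2) and a low pair (replicates 3 and 4), and all 4 exceeded the CD45RBhigh arrays. The difference of Cd44 was 1.50 ± 0.31 (SE), with a limma adjusted p of 0.0083 that fell to 2.74e-06 with the replicate block.

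The naive-side markers went the other way. Ccr7, which guides cells into lymph nodes, read 11.53, 11.45, 11.27 and 11.26 in CD45RBhigh cells and 10.65, 10.50, 10.90 and 10.72 in CD45RBlow cells. Il7r, the IL-7 receptor alpha chain, read 11.53, 11.50, 11.63 and 11.46 against 11.02, 11.09, 10.92 and 11.07. Neither overlapped between populations, and each remained among the brighter messages of the chip in both. The differences were -0.69 ± 0.10 for Ccr7 (limma adjusted p 0.000511) and -0.50 ± 0.07 for Il7r (0.000481). The markers Cxcr6, Cxcr3, Ifng, Cd44 and Ccr7 all lay on the side their labels imply. They were chosen with earlier results of these data known, so this is not an independent check of the labels. Ptprc, the gene for CD45, was not analysed here. In bulk RNA a larger share of expressing cells and more RNA per cell cannot be told apart, and this holds for every result below.

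**Figure D2:**
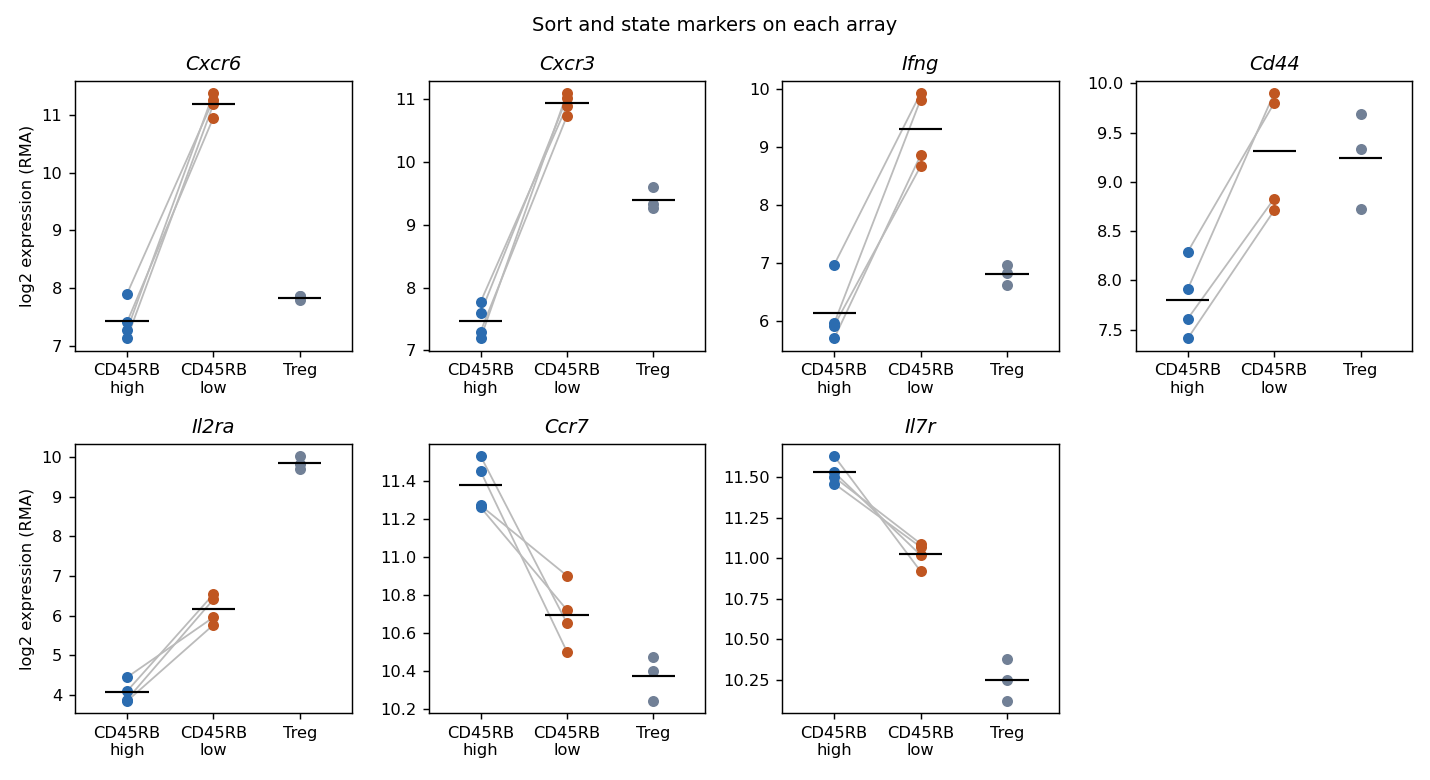
Log2 expression of 7 sort and state markers on each array, with CD45RBhigh, CD45RBlow and Treg arrays side by side. Points are arrays, black bars are means, and grey lines join CD45RBhigh and CD45RBlow arrays of the same replicate number; the 4 CD45RBlow arrays lie wholly above or below the 4 CD45RBhigh arrays in each panel.

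Il2ra, the gene of the CD25 gate, was itself higher in CD45RBlow cells although both populations were sorted as CD25-. It read 4.10, 3.89, 3.85 and 4.45 in CD45RBhigh cells and 6.54, 6.41, 5.77 and 5.96 in CD45RBlow cells, a difference of 2.10 ± 0.18 (limma adjusted p 1.28e-05). The 3 Treg arrays read 10.02, 9.69 and 9.81, well above both. Other messages linked to regulatory T cells moved with it, with a median difference of 1.98. Of the 12 measured markers 10 were higher in CD45RBlow cells and none lower (83.3%, against 12.6% of all probe sets). Of these 10, 5 also stand on the list of activated and memory markers, and the other 5 were Ccr6, Cd83, Il1r2, Il2ra and Itgae. The regulatory list was chosen with earlier results of these data known. The summed level of the list, on the log2 scale, ran from 8.91 to 9.27 in CD45RBhigh, from 10.72 to 11.52 in CD45RBlow and from 12.85 to 13.31 in Treg arrays. The 2 members that did not pass were Sdc4, at 4.87 ± 0.15 and 5.30 ± 0.32 (SD, n = 4 each; adjusted p 0.122, and 0.00317 with the replicate block), and Gpc4, at 3.02 and 2.93. The part of CD25-low regulatory T cells in the differences below was not tested.

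Markers of lineages outside CD4+ T cells passed in 3 of 20 genes for myeloid and dendritic cells, 3 of 7 (42.9%) for B cells and 4 of 9 (44.4%) for natural killer and CD8 cells, against 12.6% of all probe sets. Of the myeloid and dendritic markers none was higher, and Clec10a, Cd209a and Siglech were lower by 0.31, 0.26 and 0.53. Other Siglech probe sets differed by -0.26 and -0.29 and did not pass. When arrays were scaled on the probe sets of small spread, no myeloid or dendritic marker was called lower. Csf1r, which marks macrophages, averaged 5.02 and 5.03, and Siglec1 4.79 and 4.69. The list's summed level ran from 8.57 to 8.66 in CD45RBhigh and from 8.50 to 8.53 in CD45RBlow arrays. Of 7 B cell markers 3 were higher, namely Cxcr5, which CD4+ follicular helper cells also express, Cd22 (0.59) and Cd74 (0.52), while Cd72 and Siglecg, at 7.70 and 4.84 in CD45RBhigh cells, averaged 7.39 and 4.67 in CD45RBlow cells and did not pass, except Cd72 with the replicate block (0.0153). The summed B cell level was 11.65 to 11.77 against 11.56 to 11.89. Of 9 natural killer and CD8 markers 2 were higher (Il2rb and Klrc1) and 2 lower (Klrd1 and Klra4), with sums of 9.77 to 10.14 against 10.17 to 10.76 that did not overlap. Il2rb, which averaged 7.27 and 9.84, also stands on the list of activated and memory markers, and the median difference of the natural killer and CD8 list was negative. No platelet or erythroid marker of the 4 measured passed, at an unadjusted p under 0.05 either, with sums of 5.98 to 6.18 against 5.95 to 6.16. RMA gives no zero, so none of these markers can be called absent, and their part in the results was not tested.

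Receptors that guide T cells to inflamed tissue, gut and skin were higher in CD45RBlow cells. Of 19 measured receptors 11 were higher and 2 lower in CD45RBlow cells (68.4% against 12.6% of all probe sets), and the median difference was 1.08 against -0.08. Ccr2, which brings cells to sites of CCL2 production, read 6.15, 5.15, 5.33 and 5.54 against 9.24, 9.05, 8.31 and 8.96, a gap with no overlap. The difference of Ccr2 was 3.35 ± 0.23 (limma adjusted p 4.58e-06). Together with Cxcr6 and Cxcr3 (3.76 ± 0.15 and 3.47 ± 0.13, both with adjusted p 2.89e-08) these are receptors for chemokines of inflamed tissue.

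Ccr9, Ccr6 and Cxcr5 were higher as well. Ccr9, the small-intestine receptor for CCL25, read 6.80, 6.45, 5.69 and 6.44 against 9.37, 9.42, 8.40 and 8.90 (difference 2.68 ± 0.30, limma adjusted p 9.77e-05). It stood on the list of naive markers and was the single member of that list to be higher. Ccr6, the CCL20 receptor of IL-17-producing cells, read 6.47, 6.18, 6.28 and 5.96 against 8.37, 8.89, 7.62 and 8.07, a 4.04-fold difference. Cxcr5, which takes follicular helper cells into B cell follicles, read 5.89, 5.42, 5.85 and 6.21 against 8.07, 8.41, 7.80 and 7.50, a 4.29-fold difference. The skin- and Th2-associated receptors Ccr4 (1.99 ± 0.32), Ccr10 (1.24 ± 0.13) and Ccr8 (1.08 ± 0.10) followed. Ccr3, near the low end of the scale at 3.25 and 3.74, was higher as well. The lower receptors were Ccr7 and Cxcr1, the latter an interleukin-8-type receptor of neutrophils that averaged 5.11 and 4.58.

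Among the receptors that did not pass, Cxcr4, which binds CXCL12, averaged 9.32 ± 0.34 and 9.02 ± 0.22 (SD, n = 4 each), and Cxcr2 5.10 and 4.87. Cx3cr1, the fractalkine receptor, read 5.93, 5.54, 4.91 and 4.84 in CD45RBlow cells against 4.96, 4.61, 4.63 and 4.56. Its highest CD45RBhigh array lay above the lowest CD45RBlow arrays, and the adjusted p was 0.0903 by limma, 0.0075 with the replicate block. Ccr4, Ccr3 and Cxcr1, like Il22, Il1r1, Il12rb2, Prdm1, Cd93 and Siglec1, lie outside the rule for named genes and were chosen after their values were seen.

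**Figure D3:**
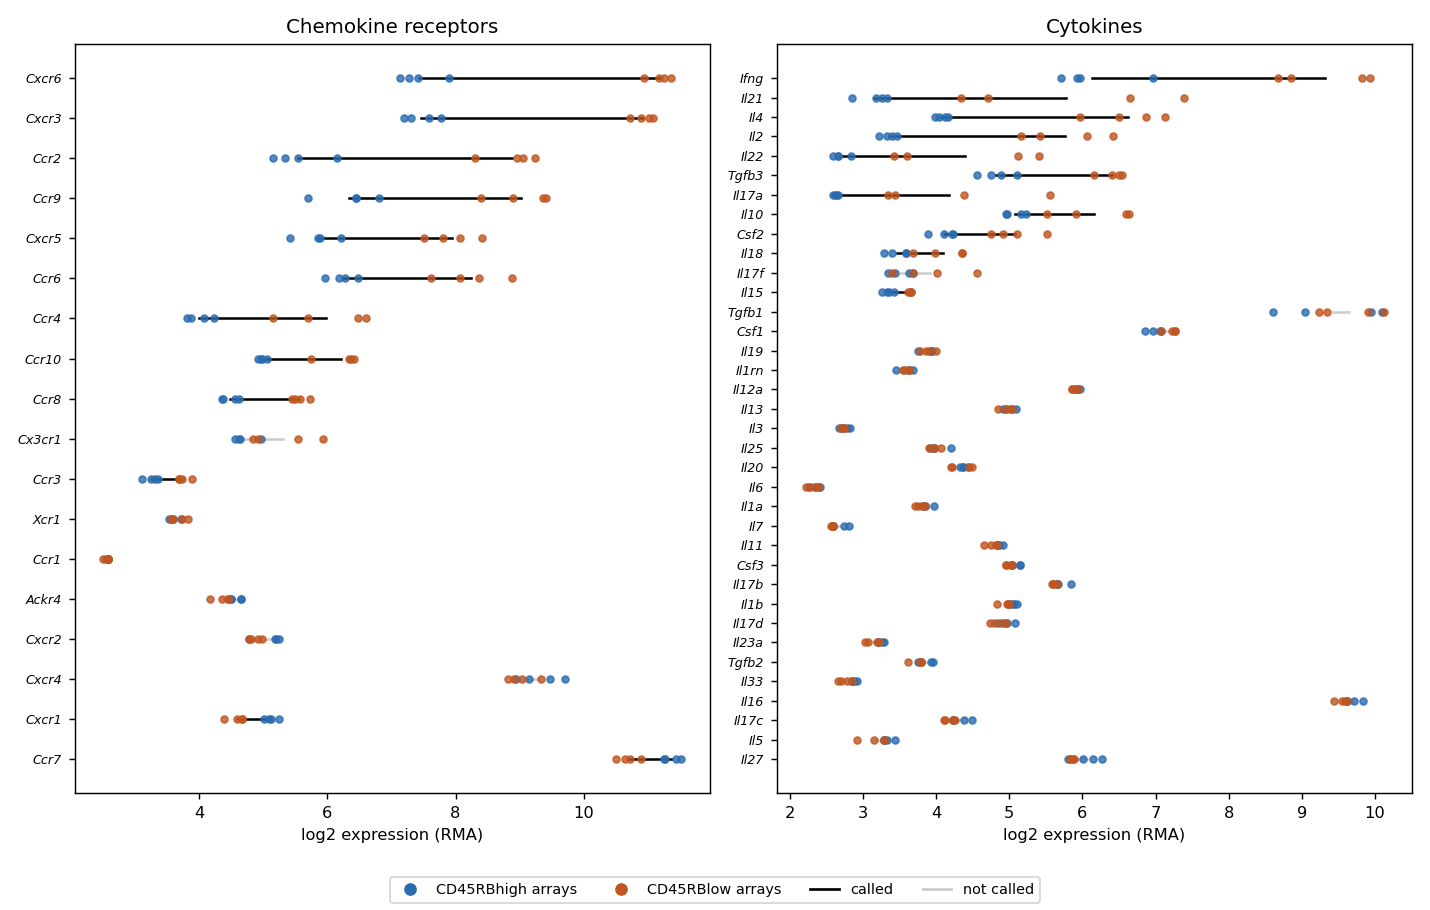
Log2 expression of 18 chemokine receptors (left) and 36 cytokines (right) on the 4 CD45RBhigh and 4 CD45RBlow arrays, sorted by difference. Points are arrays; the line joins the population means and is black where limma's test was passed, which was so for 12 of these receptors and 11 cytokines.

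Chemokine ligands passed in 4 of 29 genes, 3 higher and 1 lower, a share of 13.8% that was close to the 12.6% of all probe sets (median difference -0.03). Ccl5, a stored product of memory and cytotoxic cells, read 9.69, 8.96, 9.08 and 9.36 in CD45RBhigh cells and 11.62, 11.56, 11.37 and 11.64 in CD45RBlow cells. Xcl1, the ligand of XCR1 on cross-presenting dendritic cells, read 6.86, 6.42, 6.57 and 6.31 against 9.30, 9.45, 8.96 and 8.47. Cxcl10, a CXCR3 ligand, averaged 5.63 ± 0.20 and 7.19 ± 0.40 (SD, n = 4 each). The 3 were 4.83-, 5.67- and 2.96-fold higher in CD45RBlow cells, with limma adjusted p of 6.99e-06, 1.27e-05 and 0.000144, and none overlapped. Ccl4 averaged 5.26 and 5.44 and did not pass (0.312). Ccl24 averaged 4.16 and 3.90, a lower call that was lost in 8 of the 11 fits without an array.

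Cytokine messages were higher or did not pass. None of the 36 measured was lower, and 11 were higher (30.6% passed, against 12.6% of all probe sets). The median of the list, -0.03, was close to that of all probe sets, and the members that did not pass lay around it. Ifng, the Th1 effector cytokine, read 6.97, 5.96, 5.70 and 5.92 against 9.93, 9.82, 8.86 and 8.67. Il4, the Th2 cytokine, read 4.16, 3.98, 4.03 and 4.12 against 6.87, 7.13, 5.97 and 6.50. Il2, the T cell growth factor, read 3.33, 3.39, 3.22 and 3.46, near the low end of the scale, against 6.06, 6.42, 5.42 and 5.16. All 3 were separated on every array, and in each the CD45RBlow replicates 1 and 2 lay above replicates 3 and 4. The differences were 3.19 ± 0.33, 2.54 ± 0.22 and 2.41 ± 0.22 (limma adjusted p 4.76e-05, 1.27e-05 and 1.92e-05).

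Cytokines of follicular and IL-17-type helper cells varied most between CD45RBlow arrays. Il21, which acts on germinal centre B cells, read 6.65, 7.39, 4.71 and 4.34 on CD45RBlow arrays and between 2.85 and 3.32 on CD45RBhigh arrays. Il22, an epithelial-acting cytokine, read 5.12, 5.40, 3.42 and 3.60 against 2.59 to 2.83. Il17a read 4.38, 5.56, 3.44 and 3.34 against 2.59 to 2.66. In each of the 3, replicates 1 and 2 lay clearly above replicates 3 and 4, and all CD45RBlow arrays exceeded all CD45RBhigh arrays, which were near the low end of the scale. Limma's adjusted p was 0.00974 for Il21, 0.0139 for Il22 and 0.0223 for Il17a, the last rising to 0.0699 without CD45RBlow replicate 1.

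The remaining higher cytokines were Tgfb3, Il10, Csf2, Il18 and Il15. Tgfb3, a TGF-beta isoform linked to pathogenic Th17 cells, read 4.75, 4.89, 4.55 and 5.11 against 6.54, 6.41, 6.16 and 6.50, with a small spread and a difference of 1.58 ± 0.12 (limma adjusted p 6.99e-06). Il10, which restrains inflammation, averaged 5.08 ± 0.14 and 6.16 ± 0.55, and Csf2, which encodes GM-CSF, 4.10 ± 0.16 and 5.07 ± 0.33 (SD, n = 4 each). Il15 differed by only 0.30 between arrays near the low end, where the CD45RBhigh mean of Il18 lay as well. Tgfb1 averaged 9.43 ± 0.72 and 9.65 ± 0.42 and did not pass (0.677), with replicates 3 and 4 above replicates 1 and 2 in both populations. Il16, at 9.70 and 9.55, did not pass either. Csf1, which encodes the macrophage growth factor, had a brighter probe set at 6.99 and 7.20 that did not pass (0.181) and a dimmer one that did, with a difference of 0.50.

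Promoter stretches are shown for 5 secreted products among the largest differences and for Chsy1 and Ust, the chondroitin enzymes that differed most in opposite directions. Each gives the 120 bases before the gene's start, 5′ to 3′ on the gene's strand, from RefSeq on GRCm38.p6. Capitals mark a TATA box (TATAAA) in Ifng and Il2 and the core of the T-box element (GGTGTG, found here on the opposite strand) in Xcl1; those without capitals held no letters of the 3 motifs searched.
Ifng, chr10:118440926-118441045, plus strand: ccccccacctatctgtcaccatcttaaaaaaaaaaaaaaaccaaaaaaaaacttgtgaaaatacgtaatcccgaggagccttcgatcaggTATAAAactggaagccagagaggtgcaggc
Il2, chr3:37125955-37126074, minus strand: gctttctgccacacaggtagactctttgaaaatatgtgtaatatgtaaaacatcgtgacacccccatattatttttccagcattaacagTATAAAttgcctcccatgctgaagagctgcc
Il4, chr11:53618666-53618785, minus strand: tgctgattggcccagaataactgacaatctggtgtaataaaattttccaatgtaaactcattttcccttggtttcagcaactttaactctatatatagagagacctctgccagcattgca
Il21, chr3:37232637-37232756, minus strand: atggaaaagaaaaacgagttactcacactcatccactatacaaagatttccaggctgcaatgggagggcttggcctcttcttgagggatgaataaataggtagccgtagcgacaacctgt
Xcl1, chr1:164935523-164935642, minus strand: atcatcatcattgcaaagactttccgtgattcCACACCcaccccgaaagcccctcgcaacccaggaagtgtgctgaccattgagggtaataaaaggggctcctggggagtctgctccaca
Chsy1, chr7:66109372-66109491, plus strand: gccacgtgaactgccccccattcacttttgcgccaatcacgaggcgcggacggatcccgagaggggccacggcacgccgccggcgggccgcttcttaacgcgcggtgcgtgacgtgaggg
Ust, chr10:8518826-8518945, minus strand: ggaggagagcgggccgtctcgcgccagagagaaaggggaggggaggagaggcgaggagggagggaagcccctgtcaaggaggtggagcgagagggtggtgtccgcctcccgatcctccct

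The TATA box began at -30 in Ifng and -31 in Il2, counted from the start, and the T-box core at -88 in Xcl1. Over the 250 bases before the start, on both strands, the TATA box stood in 9 of the 56 higher genes with a sequence (16.1%), in 4 of the 32 lower genes (12.5%), in 13.4% of the 708 measured genes with one and in 12.4% of all 32851 promoters. The AP-1 element (TGANTCA), a site of the Fos and Jun factors of T cell activation, stood in 8 higher genes (14.3%) and 1 lower gene (3.12%), against 8.19% of measured genes and 6.75% of all promoters. The T-box core, bound by T-bet and eomesodermin, stood in 13 higher genes (23.2%) and 13 lower genes (40.6%), against 20.8% and 16.3%. These shares describe letters in a window and were not tested.

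Receptors for cytokines were higher in 12 and lower in 4 of 44 measured chains (36.4%, against 12.6% of all probe sets). The median difference was 0.02. The IL-2 receptor showed the split within 1 complex. Il2rb, the beta chain shared with IL-15, read 7.66, 6.95, 7.00 and 7.49 against 10.19, 10.01, 9.48 and 9.68, a 5.93-fold difference, whereas Il2rg, the common gamma chain, averaged 12.47 ± 0.04 and 12.53 ± 0.06 (SD, n = 4 each) and did not pass. The 95% interval of the Il2rg difference was -0.06 to 0.17. Il12rb1, the chain shared by the IL-12 and IL-23 receptors, read 5.96, 5.70, 5.59 and 6.08 against 8.02, 7.94, 7.65 and 7.94. Its difference of 2.05 ± 0.11 had a limma adjusted p of 4.93e-07, and the 4 CD45RBlow arrays lay within a narrow band. Il12rb2, the chain that completes the IL-12 receptor, averaged 3.88 and 4.82.

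Receptors of the IL-1 family and IL-17 family joined them. Il1rl1, the IL-33 receptor ST2, read 4.50, 4.23, 4.19 and 4.57 against 7.15, 7.19, 6.07 and 6.63 on its brighter probe set, a 5.24-fold difference, but a second, dimmer probe set differed by 0.09 and did not pass. Il17rb, a chain of the IL-25 receptor, averaged 5.26 ± 0.21 (SD, n = 4) in CD45RBhigh cells and read 7.36, 7.46, 7.05 and 7.93 in CD45RBlow cells. It was 4.57-fold higher with no overlap (limma adjusted p 6.08e-06). The IL-18 receptor chains Il18rap and Il18r1 differed by 1.35 ± 0.11 and 0.52 ± 0.12, Il1r1 by 0.98 ± 0.15 and the decoy receptor Il1r2 by 1.16 ± 0.27. Without CD45RBlow replicate 1 the differences were 0.49 for Il18r1 and 1.04 for Il1r2, with adjusted p of 0.0562 and 0.058.

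The lower chains were those of IL-6, IL-7 and interferon-gamma signalling. Il6ra, which binds IL-6, read 6.84, 6.97, 6.80 and 6.65 in CD45RBhigh cells and 6.21, 6.20, 5.94 and 6.04 in CD45RBlow cells, with no overlap. Il6st, the shared signalling chain gp130, read 10.33, 10.13, 10.13 and 10.49 against 9.74, 9.68, 9.56 and 9.60. Ifngr2, the signalling chain of the interferon-gamma receptor, read 7.91, 7.79, 7.85 and 7.89 against 7.35, 6.99, 7.29 and 7.44. The differences were -0.72 ± 0.10, -0.62 ± 0.09 and -0.59 ± 0.09 (limma adjusted p 0.000675, 0.000481 and 0.000856), each in the direction opposite to Ifng itself. The other probe sets of Il6ra were lower by 0.32 and 0.50. Il21r, which did not pass (0.0618, and 0.0207 with the replicate block), averaged 10.15 and 9.74 with no overlap, and Il27ra averaged 10.50 in both.

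All 8 measured naive markers passed, 7 lower and Ccr9 higher, and their median was -0.66. The largest lower difference among them was in Igfbp4, an IGF-binding protein of naive T cells, which read 12.48, 12.42, 12.42 and 12.61 against 11.38, 10.92, 11.49 and 11.81. Its difference of -1.08 ± 0.16 was matched on its other probe sets, at -1.16 and -1.11. Of 32 activated and memory markers, 28 were higher and none lower (87.5%, against 12.6% of all probe sets), and their median was 1.77. Both marker lists were chosen with earlier results of these data known, so their shares are not an independent check. The 4 that did not pass were Cd69, Hpse, Ccl3 and Ccl4. Cd69, an early activation marker, read 11.16, 10.79, 10.56 and 10.13 against 10.94, 10.88, 10.07 and 9.90, so that the populations overlapped and both were bright.

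**Figure D4:**
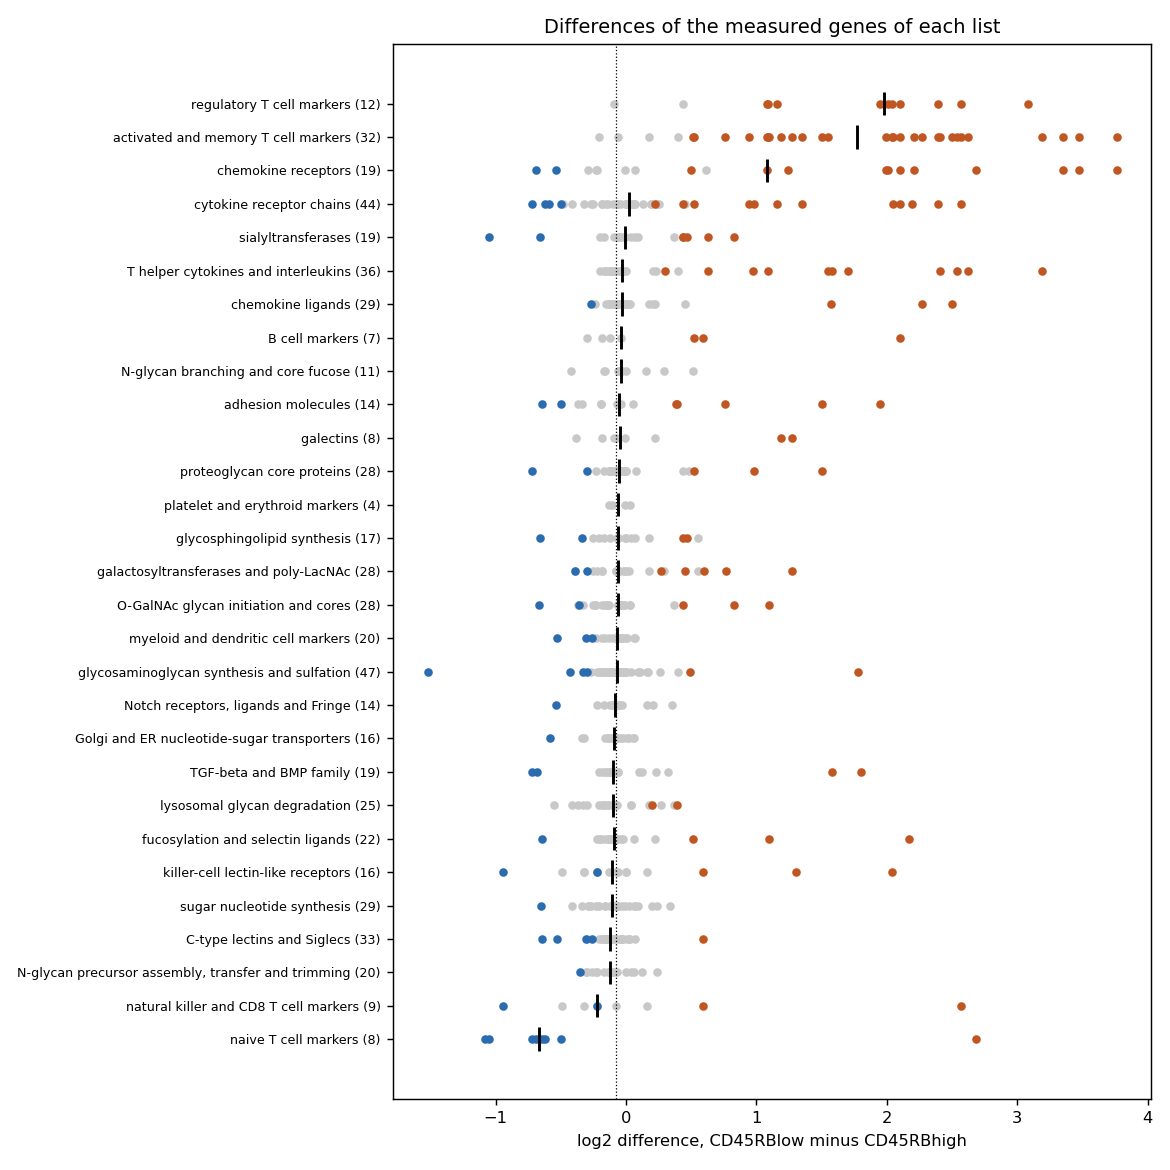
Log2 differences of the measured genes of 29 gene lists, 1 point per gene and 1 line per list with the number of measured genes in parentheses; orange points passed as higher in CD45RBlow cells, blue as lower, grey did not pass. Black bars are list medians and the dotted line is the median of all probe sets, -0.08. The medians of chemokine receptors (1.08), activated and memory markers (1.77) and regulatory T cell markers (1.98) lie far to its right, and that of naive markers (-0.66) to its left. The lists were chosen with earlier results of these data known.

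Of 19 members of the TGF-beta and BMP family list, 4 passed (21.1%, against 12.6% of all probe sets). Bmp7, a bone morphogenetic protein, read 5.40, 5.63, 5.55 and 5.94 in CD45RBhigh and 7.60, 7.56, 7.28 and 7.28 in CD45RBlow cells (difference 1.80 ± 0.12, limma adjusted p 2.69e-06). Tgfbr3, the proteoglycan co-receptor betaglycan, read 10.40, 10.39, 10.31 and 10.56 against 9.62, 9.54, 9.70 and 9.91. Acvrl1, a type I receptor of the family, averaged 7.51 ± 0.15 and 6.83 ± 0.24 (SD, n = 4 each). Bmp7 and Tgfb3 were higher and Tgfbr3 and Acvrl1 lower, and the median of the list was -0.10. Bmp5, a ligand that is not on the list, was lower by 0.21. The main signalling receptors Tgfbr1 (7.87 and 7.98) and Tgfbr2 (11.92 and 11.74) did not pass. Of 14 Notch pathway genes, only Jag2, a Notch ligand, passed (7.14%, against 12.6% of all probe sets), lower by 0.54. Notch1, Notch2 and Mfng averaged 10.10, 8.74 and 9.90 in CD45RBhigh and 10.07, 8.95 and 9.78 in CD45RBlow cells.

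Some of the largest differences lay outside these families. Cd83, a surface molecule of activated cells, read 4.99, 4.94, 4.79 and 4.78 against 8.34, 8.65, 7.51 and 7.35. Angptl2, an angiopoietin-like secreted protein, read 4.54, 4.71, 5.04 and 4.90 against 7.36, 7.53, 6.82 and 6.56. For both, the lowest CD45RBlow array exceeded the highest CD45RBhigh array by well over 1 log2 unit. Areg, the EGF receptor ligand amphiregulin, read 5.67, 5.54, 4.61 and 4.17 in CD45RBlow and 3.54 to 3.95 in CD45RBhigh cells, a call (limma adjusted p 0.0352) that reached 0.103 without CD45RBlow replicate 1. The cell-cycle subunits Cks1b and Cks2 were 1.67- and 1.65-fold higher, the transcription factor gene Prdm1, which encodes Blimp-1, 1.75-fold and Cd93 2.09-fold. Without CD45RBlow replicate 1 the adjusted p was 0.0562 for Cks1b and 0.114 for Cks2.

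Adhesion molecules passed in 7 of 14 genes, 5 higher and 2 lower. Itgae, the CD103 integrin chain that binds E-cadherin on epithelium, read 5.23, 5.36, 5.24 and 5.04 against 7.48, 7.77, 6.80 and 6.61, a 3.86-fold difference. Icam1, a ligand of LFA-1, read 8.01, 7.99, 8.03 and 8.04 against 9.02, 8.89, 8.53 and 8.66. The CD45RBhigh arrays of Icam1 were nearly equal, and the difference of 0.76 ± 0.10 had a limma adjusted p of 0.000265. Vcam1, near the low end, differed by 0.38, and Cd48, a CD2 ligand, by 0.39 with overlapping arrays. Pecam1, an adhesion molecule between leukocytes and endothelium, averaged 9.82 ± 0.19 and 9.32 ± 0.13 and was lower (0.0204). Cd2 (11.81 and 11.86), Icam2 (10.25 and 9.88) and L1cam (8.96 and 8.62) did not pass, but with the replicate block Icam2 and L1cam did, at 0.00378 and 0.00976.

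Of 8 galectins, the secreted beta-galactoside-binding lectins, 2 were higher. Lgals1, which binds N-acetyllactosamine on T cells, read 10.79, 10.45, 10.73 and 10.55 against 11.91, 12.02, 11.51 and 11.85, and Lgals3 read 6.23, 6.55, 6.16 and 6.43 against 7.73, 7.99, 7.27 and 7.46. The 2 galectins were 2.29- and 2.41-fold higher with no overlap (limma adjusted p 1.85e-05 and 0.000113). Lgals9, at 9.82 and 10.04, and Lgals8, at 8.15 and 7.96, did not pass. Lgals4 averaged 7.66 ± 0.40 and 7.28 ± 0.27 (0.227, and 0.0181 with the replicate block).

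Killer-cell lectin-like receptors are inhibitory or activating receptors shared with natural killer cells. Of 16 genes 3 were higher and 2 lower (31.2%, against 12.6% of all probe sets). Klrg1, an inhibitory receptor for cadherins, read 6.15, 5.44, 5.33 and 5.01 against 8.04, 7.77, 7.04 and 7.25, a 4.12-fold difference. Klrd1, the CD94 chain, read 9.40, 9.20, 9.35 and 8.94 against 8.53, 8.39, 8.01 and 8.20, and was lower by 0.94 ± 0.19 (limma adjusted p 0.00581). Its partner Klrc1, NKG2A, averaged 4.61 and 5.20 and was higher, so the 2 chains of the heterodimer differed in opposite directions; the Klrc1 call was lost without CD45RBlow replicate 1 and without replicate 2 (up to 0.0605). Klrb1f was 2.46-fold higher. The Klra genes are near-identical copies, so their probe sets may share targets. Klra4, at 2.51 and 2.29, passed as lower near the bottom of the scale, but its other probe set differed by -0.25 and did not. Klra9, Klra7 and Klra8 averaged 6.75, 4.45 and 4.27 against 6.53, 3.96 and 3.95 and did not pass. With the replicate block Klra7 and Klra8 passed, at 0.0182 and 0.0382. Of 33 C-type lectins and Siglecs, receptors for other sugars, Cd22 was higher and 4 were lower (15.2%, against 12.6% of all probe sets). Clec10a, Cd209a and Siglech were among the lower ones, and the median was -0.12.

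Of 228 measured glycan enzymes and nucleotide-sugar transporters on 10 lists, 30 passed (13.2%, against 12.6% of all probe sets), 17 higher and 13 lower. The list of N-glycan branching and core fucose, with 11 measured genes and no call, is not among these 10. Enzymes that build selectin ligands are described first. Chst2, which places the 6-sulfate of selectin ligands on N-acetylglucosamine, read 4.53, 4.45, 4.48 and 4.68 in CD45RBhigh and 6.78, 7.43, 6.24 and 6.39 in CD45RBlow cells. Fut7, the fucosyltransferase that completes sialyl Lewis x, read 5.81, 5.77, 6.21 and 5.88 against 6.42, 6.42, 6.42 and 6.44. Neither overlapped, and the differences were 2.17 ± 0.28 and 0.51 ± 0.09 (limma adjusted p 0.000257 and 0.00206). Gcnt1, the core 2 branching enzyme that carries these caps, read 2.92, 2.33, 2.95 and 2.94 against 3.93, 4.26, 3.63 and 3.70. That probe set lay near the low end of the scale and a second Gcnt1 probe set differed by only 0.03 and did not pass, so the gene's call rests on 1 of 2 probe sets. Of the 22 measured genes for fucosylation and selectin ligands, these 3 were higher and 1 was lower (18.2%, against 12.6% of all probe sets). The median was -0.10. Tpst2, Slc35c1 and Pofut1 averaged 9.51, 9.15 and 8.41 against 9.73, 9.20 and 8.19 and did not pass.

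Sialyltransferases, which add the terminal sialic acid of many glycans, passed in 7 of 19 genes (36.8%, against 12.6% of all probe sets). The 2 lower ones were both of the alpha-2,8 family. St8sia6 read 10.64, 10.55, 10.16 and 10.42 against 9.54, 9.36, 9.09 and 9.55. St8sia1, the GD3 synthase of gangliosides, read 9.07, 9.15, 9.03 and 9.23 against 8.57, 8.49, 8.48 and 8.30. Their differences were -1.05 ± 0.14 and -0.66 ± 0.12 (limma adjusted p 0.000301 and 0.00283), with no overlap. St8sia4, a polysialyltransferase, averaged 9.33 ± 0.20 and 9.42 ± 0.38 and did not pass (0.784), so the family did not move as one. The higher enzymes were St6galnac1 and St6galnac2, which sialylate O-linked N-acetylgalactosamine, at 0.83 and 0.44, and the alpha-2,3 enzymes St3gal6, St3gal2 and St3gal5, at 0.63, 0.47 and 0.44. St6galnac1 averaged 3.62 in CD45RBhigh cells, near the low end of the scale. St3gal6, which prefers lactosamine chains, read 7.63, 7.60, 7.59 and 7.18 against 8.20, 8.29, 7.94 and 8.10. St3gal1, which caps core 1, read 9.54, 9.70, 9.86 and 10.32 against 9.97, 9.92, 10.61 and 10.41, overlapping between populations but passing with the replicate block (0.227 and 0.0212). St6gal1, which makes the alpha-2,6 cap of N-glycans, averaged 11.48 ± 0.06 and 11.44 ± 0.14.

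Lactosamine and galactose transfer passed in 7 of 28 genes, 5 higher and 2 lower. B4galnt4, which makes the GalNAc-GlcNAc unit LacdiNAc, read 5.19, 5.04, 4.91 and 5.15 against 6.38, 6.58, 6.40 and 6.00, a 2.41-fold difference (limma adjusted p 1.85e-05). Gcnt2, the I-branching enzyme of polylactosamine, read 3.20, 3.25, 3.22 and 3.13 against 4.21, 4.05, 3.99 and 3.63. Both were separated on all arrays, but the CD45RBhigh mean of Gcnt2 was near the low end of the scale. Ggta1, the alpha-galactosyltransferase that humans lack, averaged 6.81 ± 0.27 and 7.41 ± 0.27 with overlapping arrays (0.0326, and 2.49e-05 with the replicate block). B4galt4 and B3galt5 were higher by 0.45 and 0.27. B4galt1, the main lactosamine galactosyltransferase, averaged 10.56 and 10.51, and B3gnt2, which extends polylactosamine, 9.29 and 9.58; the latter passed only with the block (0.0487). B3galnt2 was lower by 0.39 and B4galt7 by 0.30.

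Of the transferases that start O-glycans, 2 passed. Galnt4 and Galnt10, which place the first N-acetylgalactosamine, were lower by 0.67 and 0.36, and Galnt6 averaged 10.36 ± 0.24 and 9.99 ± 0.20 (limma adjusted p 0.111, and 0.0034 with the replicate block). Galnt12 averaged 9.22 and 9.20. The calls of Galnt4 and Galnt10 were lost when arrays were scaled on the probe sets of small spread, at 0.0654 and 0.0909. Over the 28 genes of O-glycan initiation and cores, 3 were higher and 2 lower (4 and 5 with the replicate block), with a median of -0.06. That was 17.9%, against 12.6% of all probe sets.

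**Figure D5:**
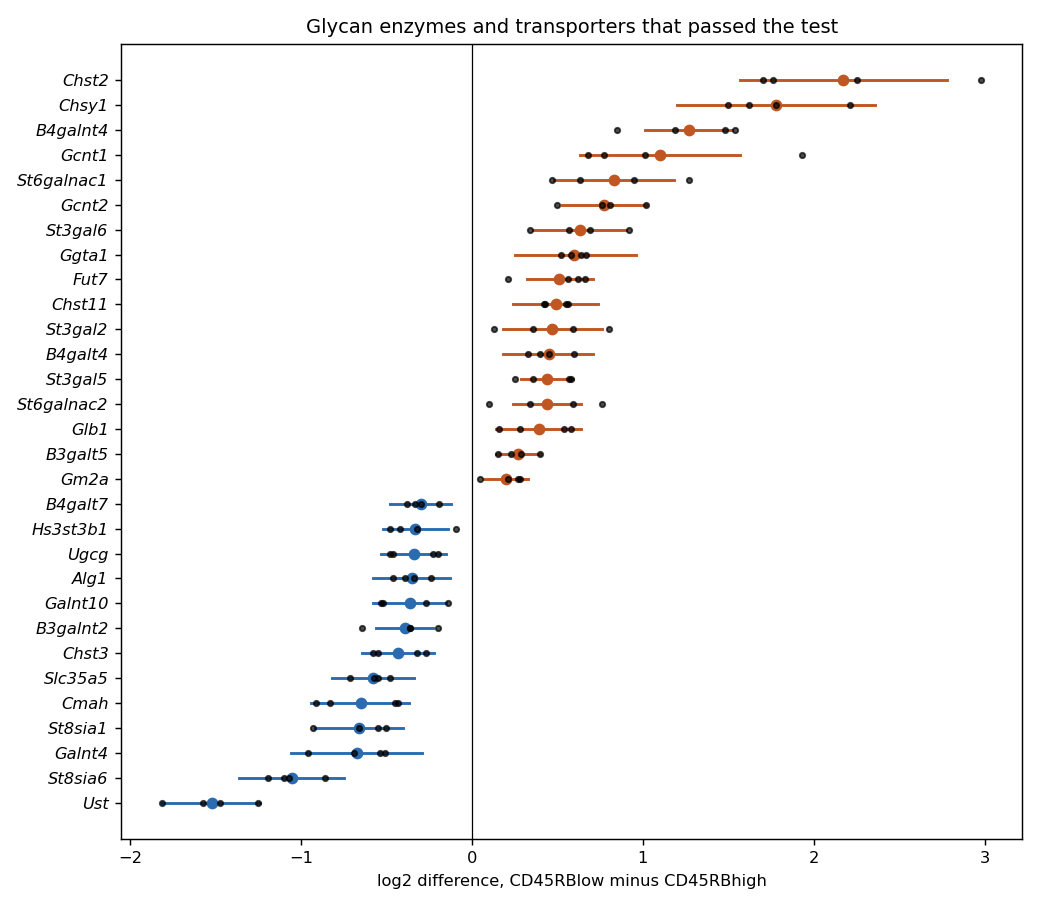
Log2 difference between CD45RBlow and CD45RBhigh cells for the 30 glycan enzymes and transporters that passed limma's test. Coloured points are the fitted differences with their 95% intervals, black points the 4 differences between arrays of the same replicate number; Chst2 (2.17) and Chsy1 (1.78) lie at one end and St8sia6 (-1.05) and Ust (-1.52) at the other.

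Glycosaminoglycan enzymes held the largest higher and lower values after Chst2. Ust, which sulfates uronic acid of chondroitin and dermatan sulfate at the 2 position, read 9.63, 9.62, 9.74 and 9.53 in CD45RBhigh and 8.17, 8.05, 7.93 and 8.28 in CD45RBlow cells. It was the largest decrease among all named genes, at -1.52 ± 0.13 (limma adjusted p 1.27e-05), and a second probe set gave -1.33. Chsy1, a polymerase of the chondroitin chain, read 8.01, 7.20, 7.10 and 7.29 against 9.64, 9.41, 8.60 and 9.07, a difference of 1.78 ± 0.26 (0.000699). Messages of enzymes that sulfate other positions also differed. Chst11, a chondroitin 4-O-sulfotransferase, averaged 5.61 ± 0.18 and 6.10 ± 0.17, and Chst3, a 6-O-sulfotransferase, 4.82 ± 0.07 and 4.38 ± 0.10 (SD, n = 4 each), with no overlap in either. B4galt7, which builds the linker that starts these chains, was lower by 0.30. Hs3st3b1, a heparan sulfate 3-O-sulfotransferase, was lower by 0.33, and Ext2 and Extl3, heparan polymerase family members, averaged 8.67 and 8.79 against 8.65 and 8.62. Papss1, which makes the sulfate donor, averaged 8.55 and 8.71. Over the 47 genes 2 were higher and 4 lower (3 and 7 with the replicate block). That share, 12.8%, and the median of -0.07 were close to the 12.6% and -0.08 of all probe sets.

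Of 28 proteoglycan core proteins, 3 were higher and 2 lower (17.9%, against 12.6% of all probe sets). Gpc1, a GPI-anchored heparan sulfate proteoglycan, read 6.54, 6.14, 6.55 and 6.93 against 7.60, 7.39, 7.29 and 7.82, a 1.97-fold difference (limma adjusted p 0.00182). Cd44 and Cd74, which can carry chondroitin sulfate, were the other higher members, and Tgfbr3 and Fmod the lower ones. Srgn, the serglycin core of secretory granules, averaged 11.93 ± 0.40 and 12.41 ± 0.31 and passed only with the replicate block (0.151 and 0.0121). Sdc3 averaged 7.04 and 6.81 (0.116, and 0.0357 with the block), and Agrn 7.11 and 7.03. Hpse, the heparanase, averaged 4.08 and 4.48 (0.0787, and 0.0402 with the block).

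Among 17 glycosphingolipid genes 4 passed (23.5% against 12.6% of all probe sets): St3gal5, the GM3 synthase, and St3gal2 were higher, and St8sia1 and Ugcg, the glucosylceramide synthase that opens the pathway, were lower. Ugcg read 11.13, 10.96, 10.97 and 10.99 against 10.65, 10.50, 10.75 and 10.79. St3gal5 read 6.19, 6.00, 5.97 and 6.27 against 6.55, 6.57, 6.55 and 6.51, so both were separated on all arrays (limma adjusted p 0.0253 and 0.00109). B4galnt1 and B3galt4, which act after GM3 and GD3, did not pass in the fit without a block. B4galnt1 averaged 10.97 and 10.96, and B3galt4 8.10 and 7.85 (limma adjusted p 0.567, and 0.0441 with the replicate block). B4galt5, the lactosylceramide synthase, averaged 8.55 and 8.72 and did not pass either.

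Cmah, which hydroxylates CMP-N-acetylneuraminic acid to the N-glycolyl form, read 10.00, 9.98, 9.49 and 9.88 against 9.17, 9.07, 9.04 and 9.45, a difference of -0.65 ± 0.13 with no overlap (limma adjusted p 0.00624). It was the only one of 29 sugar nucleotide genes to pass (3.45%, against 12.6% of all probe sets), although 5 were lower with the replicate block. Cmas, which activates sialic acid, averaged 10.69 and 10.58, and Gfus and Gpi1 9.25 and 10.07 against 9.03 and 9.95; Gfus passed with the block (0.0422). Of 16 transporters only Slc35a5 passed (6.25%), lower by 0.58 ± 0.11. Slc35b3, a transporter of the sulfate donor, averaged 10.08 ± 0.19 and 9.75 ± 0.14 (0.0612, and 0.00278 with the block). Of 25 lysosomal genes, Gm2a and Glb1 were higher by 0.20 and 0.39, while Psap and Neu1 averaged 10.74 and 8.90 against 10.58 and 8.80; with the block 3 were higher and 6 lower. The medians of the lists for which none is given here lay between -0.22 (natural killer and CD8 markers) and -0.01 (sialyltransferases).

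N-glycan branching and core fucose gave no call among 11 genes by limma's test without a block, although 2 were higher and 2 lower before adjustment (p under 0.05) and 2 were higher with the replicate block. Fut8, the core fucosyltransferase, read 7.44, 7.40, 7.28 and 7.17 against 8.11, 8.14, 7.47 and 7.60; its arrays did not overlap, and the adjusted p was 0.058, or 0.00184 with the block. Mgat1, which starts branching, averaged 9.03 ± 0.32 and 9.03 ± 0.07, and Man2a1 8.88 and 9.03. Of 20 genes for the precursor and its trimming, Alg1, which adds the first mannose, was lower by 0.35, and 5 were lower with the block, among them Rpn2, an oligosaccharyltransferase subunit (9.02 and 8.71, with 0.00688). Dpm2 and Uggt1 averaged 9.20 and 9.45 against 9.11 and 9.38.

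The pairs of replicates were also compared with each other. All 157 called probe sets had the same sign in replicates 1 and 2 as in replicates 3 and 4. They were called on these same arrays, so this agreement was largely given by the selection. Their median size was 0.82 in the first pair and 0.58 in the second. Fitted alone, replicates 1 and 2 gave 115 higher and 75 lower calls and replicates 3 and 4 gave 52 and 11. A test of the interaction over all 1246 probe sets passed for 1, Il22, whose difference was 2.52 in replicates 1 and 2 and 0.89 in replicates 3 and 4 (limma adjusted p 0.013); 122 reached an unadjusted p under 0.05. What distinguishes these replicates is not given in the labels. Without CD45RBlow replicate 1 the lower probe sets numbered 36 and without CD45RBlow replicate 2 they numbered 41, in place of 62.

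Of the 121 named genes that passed, 84 passed in each of the 11 fits that left out 1 array and 37 did not in at least 1. Those lost in 8 or more fits were Bmp5, Ccl24, Cks2, Fmod, Glb1, Gm2a, Il15ra, Khk, Ovgp1, Pkd1l2, Siglech, St3gal2 and Wnt9a. Ovgp1, an oviduct glycoprotein, was the largest of them, reading 7.64, 7.76, 7.71 and 8.43 against 6.82, 6.53, 6.98 and 7.63. Smaller dependence was seen for Alg1, Areg, Jag2, Ctns and Dhrs1 (7 fits each), Cd209a, Hs3st3b1, Il18 and Lipa (6 each), B4galt7, Cd48, Ggta1 and Pomt1 (5 each) and B4galt4, Galnt10 and Piga (4 each). The highest adjusted p among these losses was 0.138, for Bmp5 without CD45RBlow replicate 2. Pecam1 and Ugcg were lost in 3 fits and Galnt4 in 2, the highest values being 0.0658 without CD45RBlow replicate 2 for Pecam1, and 0.0753 and 0.0815 without CD45RBhigh replicate 1 for the others.

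Treg cells, the other CD45RBlow population, gave a further level for the genes that differed. The Treg comparisons share the CD45RBlow arrays, so values are set side by side with the 95% interval of the Treg minus CD45RBlow difference. Il4, Il2, Tgfb3 and Xcl1 were lower in Treg than in CD45RBlow cells: Il4 averaged 3.96 in Treg and 6.62 in CD45RBlow cells (interval -3.18 to -2.13), Il2 3.67 and 5.76 (-2.62 to -1.56), Tgfb3 4.59 and 6.40 (-2.11 to -1.53) and Xcl1 6.38 and 9.05 (-3.18 to -2.15). Cxcr6 lay 3.36 lower in Treg cells, at 7.83, and Cxcr3 at 9.40 lay between the 2 CD25- populations. Other genes were higher still in Treg cells. Cd83 averaged 10.61 in Treg and 7.96 in CD45RBlow cells (2.06 to 3.24) and Klrg1 10.41 and 7.52 (2.27 to 3.51). Itgae averaged 9.69 and 7.17 (1.91 to 3.13) and Il10 8.68 and 6.16 (1.94 to 3.10). With the Treg mean first, Il12rb1 (7.96 and 7.89, interval -0.20 to 0.34), Bmp7 (7.57 and 7.43, -0.14 to 0.43) and Chst2 (6.79 and 6.71, -0.57 to 0.74) had intervals that span 0. St8sia6 averaged 9.42 and 9.39 (-0.29 to 0.36), while St8sia1 and Ust were lower still in Treg cells, at 7.23 and 6.89. Klrd1 averaged 3.93 in Treg against 8.28 in CD45RBlow cells. Among the 75 higher genes chosen by the rule for named genes or after their values were seen, the Treg mean exceeded the CD45RBlow mean in 37 and lay between the 2 CD25- means in 29; among the 41 lower genes so chosen it lay between them in 17.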

How the data were processed

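RNA from 11 sorted T cell samples was amplified, biotin-labelled and hybridised to the custom chip, per the labels' protocols. The authors deposited log2 expression values made by Robust Multichip Average (RMA), per the submitters' processing notes; the version and probe annotation used are not given in the sources used here. RMA quantile-normalizes arrays, so a shift of all genes would not be seen. Values ran from 1.99 to 14.17. Probe sets were named through RefSeq accessions (GRCm38.p6), 963 of 1246; a gene was represented by its brightest probe set, and 194 of these have a suffix that marks probes shared between transcripts. limma 3.58.1 in R 4.3.3 fitted 1 mean per population over all 11 arrays (residual 8 and prior 2.87 degrees of freedom), with two-sided tests and Benjamini-Hochberg adjustment over all probe sets; "passed", "higher" and "lower" mean an adjusted p under 0.05. The Treg arrays entered the spread, not the difference. The script was tested on simulated data.

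Replicate numbers come from the labels. Deviations from the group means correlated between same-numbered CD45RBlow and CD45RBhigh arrays at 0.31 to 0.53, between replicates 1 and 2 or between 3 and 4 at 0.22 to 0.44 and across these sets at -0.48 to -0.18. The main fit did not use these numbers. Unless the block is named, counts, SEs, intervals and adjusted p therefore leave this pairing out. Blocking on the replicate number was an alternative, and blocked values are given where they change a call.

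Named genes were the 15 largest differences in each direction that passed without overlap, up to 8 members of each list that passed and up to 3 that did not (by level), the sort markers, and genes whose call depended on the block or on 1 array. The members and the 29 lists (492 genes measured of 649 names) were chosen with earlier results of these data known. Alternatives covered the arrays entering, the block, scaling, filters, moderation, probe sets per gene and threshold. Arrays give no read depth; their number limits the precision. Some genes counted in the lists are not reported here by name.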

Additional observations from a re-analysis of the deposited data

Results flagged for a closer look

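For 190 named genes, the 4 arrays of each population were examined for 1 array standing apart (a gap to the nearest other array above Dixon's 95% critical value); 21 of 380 groups did, and about 5% would by chance. Among genes that passed, these were Ccr10 in CD45RBlow replicate 3 (5.74 against 6.34 to 6.42), Gcnt1 in CD45RBhigh replicate 2 (2.33 against 2.92 to 2.95), Cks1b in CD45RBhigh replicate 1 (7.48 against 7.23 to 7.27), St3gal6 in CD45RBhigh replicate 4 (7.18 against 7.59 to 7.63) and Fut7 in CD45RBlow replicate 4 (6.44 against 6.42 in the others). B4galt4 in CD45RBhigh replicate 3 (4.06 against 4.31 to 4.35), Bmp5 in CD45RBlow replicate 2 (4.04 against 4.16), Pomt1 in CD45RBlow replicate 3 (6.60 against 6.42 to 6.44), Jag2 in CD45RBhigh replicate 4 (6.28 against 5.55 to 5.64) and Ovgp1 in CD45RBhigh replicate 4 (8.43 against 7.64 to 7.76) stood apart as well.

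Among genes that did not pass, single arrays stood apart for Cx3cr1 (4.96, CD45RBhigh replicate 1), Notch2 (9.57, CD45RBlow replicate 2), Tgfbr1 (7.66, CD45RBhigh replicate 2), Cd2 (11.69, CD45RBlow replicate 3), Ppbp (3.50, CD45RBlow replicate 4), B4galt1 (10.77, CD45RBhigh replicate 4), Gpc4 (2.83, CD45RBlow replicate 2), Cxcr2 (4.78, CD45RBhigh replicate 3) and Klra8 (3.76, CD45RBlow replicate 2). For Agrn replicate 4 stood apart in both populations, at 7.53 and 7.19.

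The difference of Il22 between CD45RBlow and CD45RBhigh cells was 2.52 in replicates 1 and 2 and 0.89 in replicates 3 and 4, which differed by limma's interaction test (adjusted p 0.013).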

How the results depend on the processing

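With the replicate number as a block, 271 probe sets passed in place of 157, 146 of them lower in place of 62; 156 of the 157 were kept. With the block and only the 8 arrays compared, 241 passed, 122 of them lower, and with the number as a random effect 117 were lower. The block over all 11 arrays ended no call of a named gene, and the block with 8 arrays ended those of Il15ra (0.0672), Gm2a (0.0837), Bmp5 (0.0661) and Wnt9a (0.0609). Replicates 3 and 4 alone gave 63 (52 higher, 11 lower). The lower count was 129 after a second quantile normalization and 31 with scaling on the probe sets of small spread, where the median of all probe sets was -0.01; the cause was not tested. A threshold of 0.01 left 92 (25 lower), and one of 0.1 gave 105 lower. Without 1 array at a time the total ran from 113 to 151, the higher count from 77 to 97 and the lower count from 36 to 60. All other counts stayed within 1.5 times, among them 153 with median centring, 142 with the 8 arrays alone and 126 without the 439 probe sets that have equal values within a population, a check added after seeing the data. Over the named genes and all settings, 4399 gene values kept direction and side of the threshold, 387 lost the call, 78 gained it and none reversed. The scaling on small spread ended 22 calls, all of lower genes (such as Ovgp1, 0.0539, and Jag2, 0.0827), and added Hpse and Papss1. Outside the fits without 1 array, list medians for chemokine receptors ran from 0.98 to 2.00, activated markers 1.36 to 2.13, regulatory T cell markers 1.64 to 2.21 and naive markers -0.81 to -0.59; those of the glycan lists and proteoglycans stayed between -0.20 and 0.26. The 4 arrays per population limit the precision, and low signals compress differences.

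Of the gene list values, 1952 stayed within 1.5 times (counts) or within the SD of the 4 same-number differences (medians); those that did not are given here by setting, with the lists in parentheses. With the 8 arrays alone, lower genes numbered 1 (O-glycan cores, proteoglycans) and 0 (Notch). With the 8 arrays alone, higher genes numbered 1 (glycosphingolipids, lysosome). With the replicate block, lower genes numbered 5 (O-glycan cores, N-glycan precursor, lactosamine, sugar nucleotides, killer lectins), 7 (glycosaminoglycans, cytokine receptors), 6 (lysosome), 2 (transporters, chemokine ligands), 1 (galectins, B cell markers) and 4 (adhesion, NK and CD8 markers). With the replicate block, higher genes numbered 2 (N-glycan branching), 5 (proteoglycans) and 1 (Notch). With the block and 8 arrays, lower genes numbered 6 (O-glycan cores), 5 (N-glycan precursor, lysosome), 3 (sugar nucleotides), 2 (transporters), 1 (galectins, B cell markers), 4 (killer lectins, adhesion, NK and CD8 markers) and 7 (cytokine receptors). With the block and 8 arrays, higher genes numbered 2 (N-glycan branching), 5 (proteoglycans) and 1 (Notch). With the random effect, lower genes numbered 5 (O-glycan cores, lysosome, killer lectins), 2 (N-glycan precursor, transporters), 4 (lactosamine, NK and CD8 markers) and 3 (sugar nucleotides). With the random effect, higher genes numbered 2 (N-glycan branching). In replicates 1 and 2, medians were -0.10 (O-glycan cores, proteoglycans, myeloid markers), 0.08 (sialyltransferases), -0.08 (chemokine ligands), -0.19 (adhesion), -0.81 (naive markers) and 0.09 (B cell markers). In replicates 1 and 2, lower genes numbered 1 (O-glycan cores, N-glycan branching, glycosaminoglycans, proteoglycans, glycosphingolipids, lysosome, galectins, killer lectins, myeloid markers), 0 (lactosamine, transporters, NK and CD8 markers), 2 (sugar nucleotides, C-type lectins) and 7 (cytokine receptors). In replicates 1 and 2, higher genes numbered 3 (N-glycan branching) and 1 (sugar nucleotides). In replicates 3 and 4, lower genes numbered 0 (O-glycan cores, N-glycan precursor, fucosylation, lactosamine, proteoglycans, sugar nucleotides, C-type lectins, chemokine ligands, chemokine receptors, TGF-beta family, Notch, adhesion, myeloid markers), 1 (sialyltransferases, glycosphingolipids, lysosome, killer lectins, cytokine receptors, naive markers, NK and CD8 markers) and 2 (glycosaminoglycans). In replicates 3 and 4, medians were -0.12 (N-glycan branching) and -0.20 (transporters). In replicates 3 and 4, higher genes numbered 1 (sialyltransferases, lactosamine, proteoglycans, NK and CD8 markers, B cell markers), 0 (glycosphingolipids, lysosome, C-type lectins), 7 (cytokine receptors) and 3 (adhesion). After the second quantile normalization, lower genes numbered 5 (O-glycan cores), 1 (N-glycan branching), 4 (sialyltransferases, lactosamine, glycosphingolipids, lysosome, adhesion), 3 (fucosylation, sugar nucleotides) and 2 (cytokines). After the second quantile normalization, higher genes numbered 4 (glycosaminoglycans). After the second quantile normalization, medians were -0.00 (cytokines). Scaled on small spread, medians were 0.01 (O-glycan cores, glycosaminoglycans, myeloid markers), 0.06 (sialyltransferases), -0.02 (fucosylation), 0.02 (lactosamine, proteoglycans, glycosphingolipids, galectins), -0.03 (lysosome, TGF-beta family), -0.05 (C-type lectins), 0.04 (chemokine ligands, cytokines) and 0.10 (cytokine receptors). Scaled on small spread, lower genes numbered 0 (O-glycan cores, N-glycan precursor, chemokine ligands, Notch, myeloid markers), 1 (lactosamine, proteoglycans, glycosphingolipids, C-type lectins, killer lectins, NK and CD8 markers) and 2 (glycosaminoglycans). Scaled on small spread, higher genes numbered 1 (N-glycan branching, sugar nucleotides, Notch) and 5 (glycosaminoglycans). Above the first quartile, medians were -0.14 (O-glycan cores), -0.12 (glycosaminoglycans) and 0.24 (B cell markers). Above the first quartile, higher genes numbered 1 (lysosome). Above the first quartile, lower genes numbered 1 (lysosome, killer lectins, NK and CD8 markers). Above the median level, medians were -0.16 (O-glycan cores), -0.09 (glycosaminoglycans), 0.26 (proteoglycans), 0.10 (galectins), 0.18 (chemokine ligands), 2.00 (chemokine receptors), -0.19 (adhesion) and 0.52 (B cell markers). Above the median level, higher genes numbered 0 (O-glycan cores), 1 (N-glycan branching, lysosome, killer lectins, NK and CD8 markers), 3 (sialyltransferases), 2 (lactosamine) and 4 (cytokines). Above the median level, lower genes numbered 2 (glycosaminoglycans), 1 (proteoglycans, lysosome, C-type lectins, killer lectins, chemokine receptors, NK and CD8 markers) and 0 (transporters, chemokine ligands, myeloid markers). With an intensity trend, lower genes numbered 1 (O-glycan cores, lactosamine) and 0 (N-glycan precursor). With an intensity trend, higher genes numbered 1 (lysosome). Without equal values, medians were 0.07 (sialyltransferases), -0.09 (glycosaminoglycans), 2.00 (chemokine receptors), 0.22 (cytokines), 0.52 (B cell markers) and -0.11 (myeloid markers). Without equal values, lower genes numbered 1 (proteoglycans, lysosome, chemokine receptors, myeloid markers) and 2 (C-type lectins). Without equal values, higher genes numbered 1 (glycosphingolipids, lysosome, TGF-beta family) and 7 (cytokine receptors). With robust moderation, lower genes numbered 1 (proteoglycans). With 1 probe set per gene, lower genes numbered 1 (proteoglycans). With median centring, higher genes numbered 0 (lysosome). Without 1 array at a time, medians ran -0.11 to -0.06 (O-glycan cores), -0.11 to -0.03 (glycosaminoglycans), -0.15 to -0.04 (lysosome), -0.05 to 0.01 (chemokine ligands) and -0.24 to -0.07 (NK and CD8 markers). Without 1 array at a time, higher genes ran 0 to 1 (N-glycan branching), 3 to 6 (lactosamine), 1 to 2 (glycosphingolipids, NK and CD8 markers) and 0 to 2 (lysosome). Without 1 array at a time, lower genes ran 0 to 3 (O-glycan cores), 0 to 1 (N-glycan precursor, N-glycan branching, chemokine ligands, cytokines, Notch), 1 to 3 (lactosamine, glycosphingolipids), 2 to 4 (glycosaminoglycans, killer lectins), 1 to 2 (proteoglycans, transporters, adhesion, myeloid markers), 0 to 2 (lysosome) and 2 to 3 (C-type lectins).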

Other observations

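A further 28 probe sets that passed carry no gene name here, 13 higher by 0.17 to 2.34 and 15 lower by 0.25 to 0.79 on the log2 scale.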
